A study of Arabidopsis thaliana with 8 samples.

Results

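The genes described here were chosen by their deposited intensities: exactly 0 in each of the 4 samples of plants aged 3 weeks, and more than 0 in each of the 4 samples of plants aged 4 weeks. They are 71 of the 692 probes that the platform annotation pairs with exactly 1 gene, in a table of 3439 probes. The rule used all 8 values of a gene, so the difference between the ages is given as a description, with no test and no fold change. The plants were wild-type Arabidopsis thaliana of the Columbia 0 ecotype in both groups, and total RNA was measured on 8 arrays, 4 for each age. No treatment, mutation or transgene appears in the labels, and the sources used here give neither the organ nor the growth conditions, nor whether different plants lie behind the arrays of an age. The spread between arrays may therefore be technical.

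Arabidopsis plants of this age form rosette leaves, whose cells depend on chloroplasts for carbon and on mitochondria for respiration. Most proteins of both organelles are encoded in the nucleus and imported. Nuclear genes also supply the repeat proteins, RNA methyltransferases and topoisomerases that keep the small genomes of the organelles readable. Leaf expansion further draws on enzymes that build and loosen the cell wall, and on kinases, peptides and transcription factors that pass signals on. A role is given here for 42 of the 71 genes. Some of them fall into these functions, and others, such as those of protein turnover and DNA repair, do not.

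How a value of 0 arose in this table is not stated, so a gene listed at 0 has no known level and is not shown to lack RNA. Zeros made up 26.9% to 32.0% of the probes on a 3-week array and 13.4% to 13.7% on a 4-week array. The median intensity was 0.0239 to 0.0308 on the 3-week arrays and 0.39 to 0.445 on the 4-week arrays, although the summed intensities were of similar size, 2882 to 3084 and 3176 to 3359. The intensity scale runs from 0 to 100 in arbitrary units, and how it was scaled or corrected for background is not stated. Within a sample, fewer cells of a type and less RNA per cell cannot be told apart. Markers were looked for only among the 692 probes with 1 gene. Of the leaf markers, 6 of 7 were found there, and LHB1B2, PRK, PSAN, PSBW and PSBY were above 0 on all 8 arrays. Their deposited levels differed between the ages, with 73.5 ± 10.1 (SD, n = 4) at 3 weeks and 13.9 ± 1.7 at 4 weeks for LHB1B2, and 7.23 ± 1.45 and 0.951 ± 0.13 for PRK. PSAN had 19.2 ± 1.62 and 2.54 ± 0.333, PSBY 6.82 ± 3.62 and 0.771 ± 0.636, and PSBW, higher at 4 weeks, 17.5 ± 2 and 28.3 ± 1.23. The means of PSBY describe none of the arrays. On replicates 1 to 4 it had 9.99, 9.91, 3.53 and 3.85 at 3 weeks. At 4 weeks it had 1.3, 1.34, 0.199 and 0.242. SBPASE was at 0 on all arrays but replicate 4 of 3 weeks, where it had 0.00689. No flower, root or senescence marker was found among these probes (0 of 3, 0 of 2 and 0 of 2). Probes with several genes were not searched, so nothing is known here about organs other than leaves. The part of the shift in leaf markers in the zeros was not tested.

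Over all 3439 probes 288 met the rule, which is 8.37%, and among the 692 probes with 1 gene 72 did, which is 10.4%. Of the 72, 1 gene is not described here. The opposite pattern, with zeros throughout at 4 weeks and detection throughout at 3 weeks, held for 10 probes (0.291%), of which 1 had 1 gene (0.145%). These counts depend on where the zeros lie, and zeros were more frequent on the 3-week arrays. Nothing is read from the counts about the genes. In all, 115 genes were at 0 on every 3-week array. Of these, 72 were above 0 on all 4 arrays of 4 weeks, 34 were at 0 there as well, and 9 lay between.

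**Figure D1:**
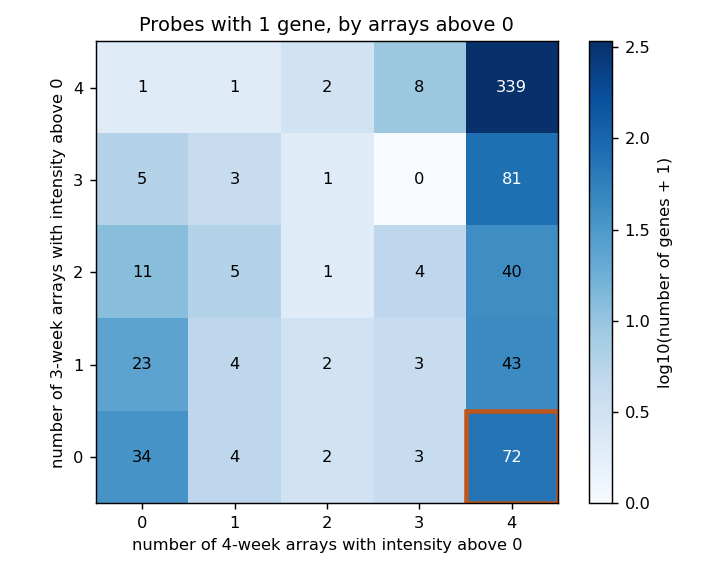
Number of probes with 1 gene by how many of the 4 arrays of 3 weeks (vertical axis) and of 4 weeks (horizontal axis) had an intensity above 0. The outlined cell holds the 72 probes at 0 on every 3-week array and above 0 on every 4-week array, and 339 probes were above 0 on all 8 arrays; colour is log10 of the number of genes plus 1.

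Just outside the rule, a further 43 genes were above 0 on all 4 arrays of 4 weeks and on a single array of 3 weeks, where their values ran from 0.000561 to 2.81 with a median of 0.0134. The 5 with the lowest such value are named here. AT4G40080 missed the rule through 0.000561 on replicate 1 of 3 weeks and had 0.681, 0.702, 0.588 and 0.618 at 4 weeks. CCB3, a factor that assembles cytochrome b6f of the thylakoid, missed it through 0.0027 on replicate 2 and had 0.41, 0.369, 0.328 and 0.275 at 4 weeks. AT5G34870, AT1G70180 and AT2G48130 missed it through 0.00168, 0.00199 and 0.00208. The lowest value above 0 on any 3-week array was 1.96e-07, so the step between 0 and detection is not an interval of known width.

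On the other side, 3 genes with zeros throughout at 3 weeks were detected on 3 of the 4 arrays of 4 weeks. AT2G20920 had 0.516, 0.593, 0 and 0.0558 in the order of the replicates, and AT2G37880 had 0.333, 0.352, 0.168 and 0. AT2G37750 had 0.017, 0.106, 0.053 and 0. In all 3 the 0 was on replicate 3 or 4. The dimmest gene inside the rule was AT3G26730, which encodes a RING finger protein of the kind that tags proteins with ubiquitin, with 0.0452, 0.052, 0.0682 and 0.0582. The lowest single value of the 71 genes at 4 weeks was 0.0444, on replicate 1 for AT3G17950, and the lowest above 0 of any probe on a 4-week array was 0.000614.

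Within the 4-week arrays the genes ran from dim to moderately bright. Their mean intensities lay between 0.0559 and 1.78, with a median of 0.462 and quartiles of 0.225 and 0.721. The highest single value was 2.03. Each value was also ranked within its array as a percentile of all 3439 probes, a measure that no scaling of an array can alter. Brightness also depends on the probe, so a rank places a probe on its array and does not compare amounts of RNA between genes. The median percentile of a gene over the 4 arrays ran from 16.3 to 93.5, and its median over the 71 genes was 54.2. The 575 probes with 1 gene that were above 0 on all 4 arrays of 4 weeks, a set that holds these genes too, had a median of 60.3 and reached 99.7.

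A mean above 1 was reached by 9 of the 71 genes (12.7%), against 122 of those 575 probes (21.2%). A median percentile above 90 was reached by 4 (5.63%), against 78 of the 575 (13.6%). On all 4 arrays 34 of the 71 genes (47.9%) were above the array median and 29 were below it, which leaves 8 on different sides on different arrays. Of the 575 probes, 299 (52.0%) were above it on all 4 arrays and 181 were below. The 339 probes with 1 gene above 0 on all 8 arrays ranked higher, with a median percentile of 67.6, and 204 of them (60.2%) were above the median on all 4 arrays. The genes at 0 at 3 weeks carried 1.16% to 1.23% of the summed intensity of a 4-week array. No test goes with these comparisons, because detection at 4 weeks is part of the rule. The 339 probes and the 71 genes were also set apart by their 3-week values.

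**Figure D2:**
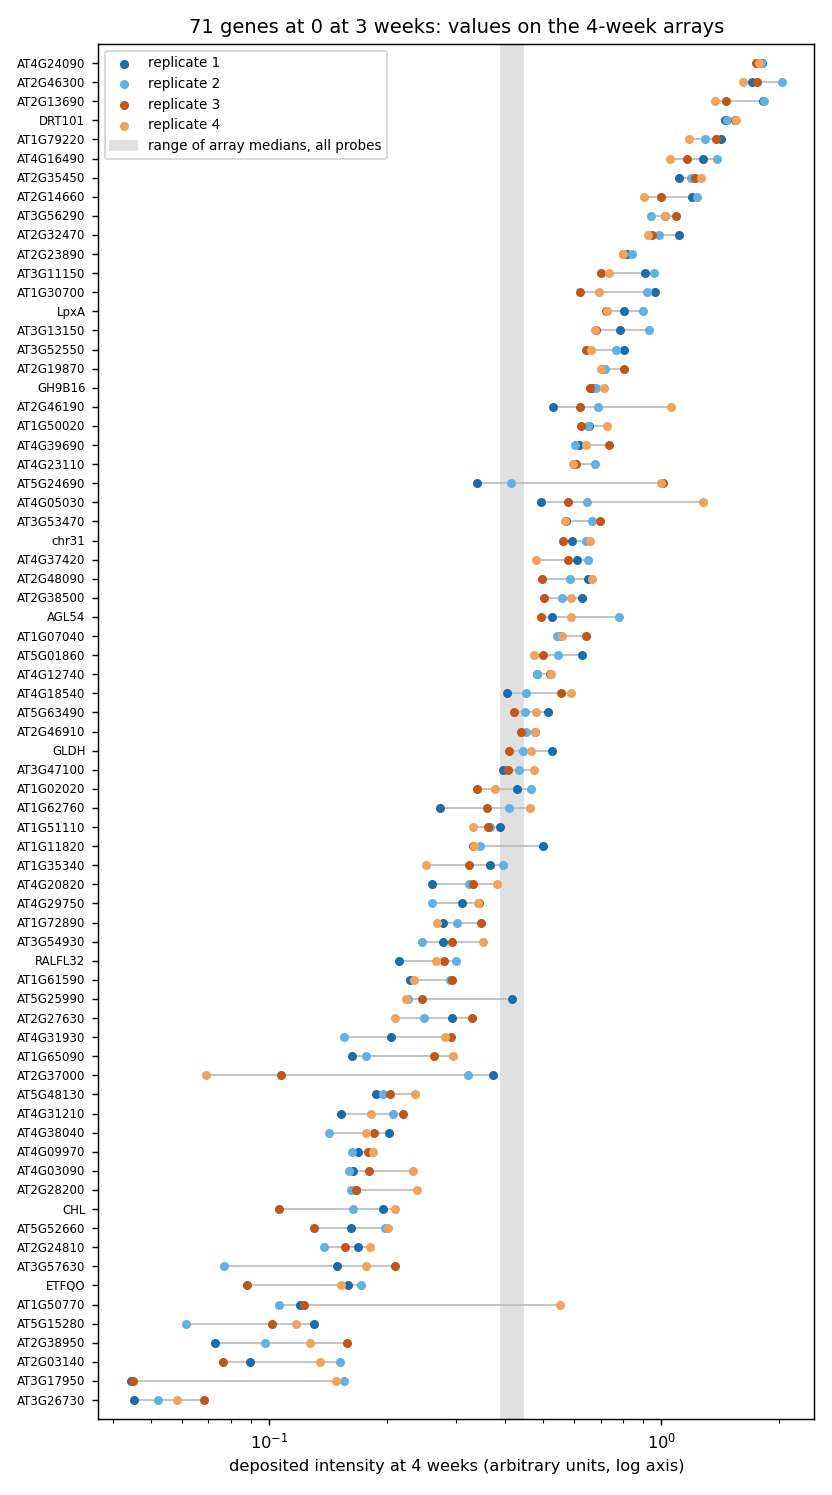
Deposited intensity of the 71 genes on the 4 arrays of 4 weeks, in arbitrary units on a log axis, ordered by median percentile; points are arrays, lines their range, and the grey band spans the array medians of 0.39 to 0.445. The highest 22 genes have all 4 values to the right of the band, and AT2G37000, AT1G50770, AT3G17950 and AT5G24690 have the widest lines.

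**Figure D3:**
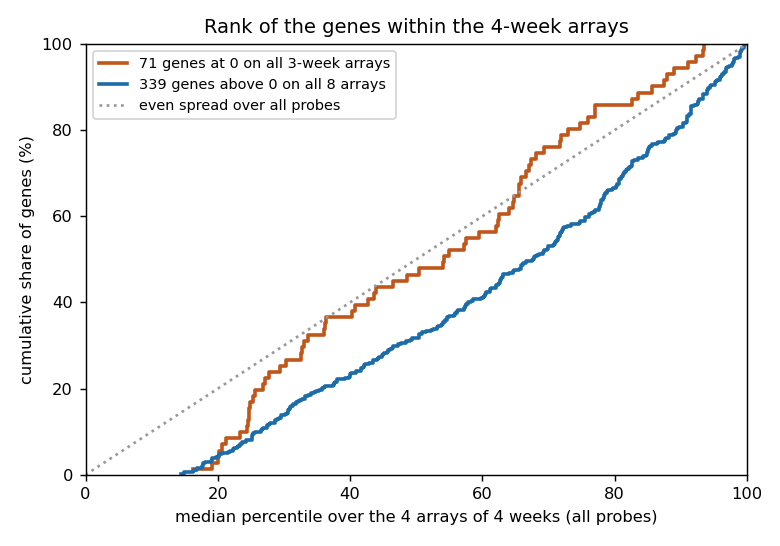
Cumulative share of genes by median percentile within the 4-week arrays, for the 71 genes and for the 339 genes above 0 on all 8 arrays; the dotted line is an even spread over all probes. The 71 genes end at a percentile of 93.5, and the median lies at 54.2 against 67.6.

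The brightest gene was AT4G24090, for which no role is given here. Its intensities were 1.81, 1.80, 1.74 and 1.78 on replicates 1 to 4, a mean of 1.78 ± 0.0291 (SD, n = 4), and its percentile stayed between 93.2 and 93.8. This was the narrowest range of percentiles among the 71 genes, 0.582. AT2G46300 had 1.70, 2.03, 1.75 and 1.62, with percentiles of 92.5 to 94.5. AT2G13690 had 1.82, 1.83, 1.46 and 1.37, higher on replicates 1 and 2 than on 3 and 4. The ranks of these 3 changed places between arrays, since AT2G13690 had the highest value of the 3 on replicate 1 and the lowest on replicates 3 and 4.

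DRT101 ranked just below them. The gene was named for tolerance of DNA damage, and its product is a phosphoacetylglucosamine mutase, an enzyme on the route to the sugar nucleotide UDP-N-acetylglucosamine, which feeds protein glycosylation. Its intensities were 1.45, 1.47, 1.54 and 1.55, a mean of 1.5 ± 0.0482 and a percentile of 90.1 to 92.0. It was the brightest of the 9 genes with a symbol of their own in the RefSeq table. LpxA came next among these 9, with 0.802, 0.898, 0.724 and 0.728 and percentiles of 74.5 to 78.7. LpxA encodes the acyltransferase that opens the pathway to lipid A, a bacterial membrane lipid of which plants make precursors.

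Of the remaining genes with a symbol, GH9B16, a glycosyl hydrolase of the family that holds the plant endoglucanases, had 0.669, 0.683, 0.657 and 0.716. Its 4 values lay above the array medians and within a narrow range. The chromatin remodelling gene chr31 had 0.593, 0.644, 0.563 and 0.658, and AGL54, a MADS box transcription factor gene, had 0.526, 0.779, 0.493 and 0.587. All 3 genes were above the median on every array.

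GLDH encodes the mitochondrial dehydrogenase that makes ascorbate, the main soluble antioxidant of leaves, from galactono-lactone. Its intensities were 0.528, 0.444, 0.41 and 0.466, close to the array medians and below the median on replicate 2. RALFL32, a gene for a small secreted signalling peptide, had 0.215, 0.3, 0.28 and 0.266. CHL, the chloroplastic lipocalin that protects thylakoid lipids under stress, had 0.195, 0.164, 0.106 and 0.209. ETFQO, which passes electrons from amino acid breakdown to ubiquinone in the mitochondrion, had 0.159, 0.172, 0.0879 and 0.153. The last 3 lay below the array median on all 4 arrays, and CHL and ETFQO had their lowest value on replicate 3.

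All 71 genes matched the RefSeq table of assembly TAIR10.1 as protein-coding genes, and 62 have only a locus code there. Word groups were searched in the symbols and synonyms of that table. The group for DNA, chromatin and transcription matched 3 of the 71 (DRT101 by its name, chr31 and AT4G03090) and 3 of the 620 probes with 1 gene that did not meet the rule. The redox group matched 2 of the 71 (ETFQO and GLDH) and 6 of the 620, and the group for carbohydrates and cell wall 2 (GH9B16 and GLDH) and 5. The group for other transferases, hydrolases and lyases matched 1 of the 71 (GH9B16) and 8 of the 620. None of the 71 matched the groups for photosynthesis (7 of the 620), proteases and chaperones (7), amino acids with nucleotides and cofactors (5), kinases and phosphatases (3), lipids (2), RNA processing (1) or transport (1). The groups for ribosome and translation and for unknown function matched 0 genes of either set. As 65 of the 71 and 584 of the 620 matched no word, these counts say little about function. Roles for 42 genes were therefore added by hand from general knowledge of the locus or its protein family, after the values had been seen, and 29 genes are given no role. The groups formed from these roles are small, and no other genes were sorted in the same way, so they are described by counts alone. No link between role and brightness is read from these counts.

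Of the genes that act on RNA and organelle gene expression there were 5. Pentatricopeptide repeat proteins bind single RNAs in chloroplasts and mitochondria and steer their editing, splicing and stability. The gene AT3G13150 of this family had 0.786, 0.93, 0.682 and 0.678 and was above the median on all arrays, while AT5G15280 had 0.13, 0.0616, 0.102 and 0.117 and was below it on all. AT1G79220, of the mTERF family, whose members act in organelle transcription and RNA maturation, had 1.42, 1.29, 1.38 and 1.18 and ranked next below DRT101. AT2G19870, an RNA methyltransferase of the SpoU family, had 0.705, 0.718, 0.805 and 0.7, and AT4G29750, with CRM domains of the kind found in chloroplast intron splicing factors, had 0.311, 0.261, 0.343 and 0.342. The group thus spans nearly the whole range, with median percentiles from 20.7 to 89.0.

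Genes of DNA, chromatin and transcription numbered 9, and 6 of them were below the array median on all 4 arrays, against 29 of all 71 genes. The median of the 9 mean intensities was 0.19. The 3 above the median throughout were chr31, AGL54 and AT4G12740, a base excision repair glycosylase, with 0.482, 0.483, 0.521 and 0.525. AT4G31210, a type IA topoisomerase that relieves strain in DNA, had 0.153, 0.207, 0.22 and 0.182. The nodulin homeobox gene AT4G03090 had 0.164, 0.16, 0.18 and 0.233. The zinc finger gene AT2G28200 and the MYB-like gene AT5G52660 had means of 0.183 ± 0.0363 and 0.173 ± 0.0337, both with the highest value on replicate 4. AT2G38950, with a jumonji domain as in histone demethylases, was the dimmest of the group with 0.0727, 0.0976, 0.158 and 0.127.

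The TCP family transcription factor gene AT2G37000 stood apart within that group by its spread. It had 0.373 and 0.321 on replicates 1 and 2 and 0.107 and 0.0691 on replicates 3 and 4, so that its mean of 0.218 ± 0.152 describes none of the 4 arrays. TCP proteins regulate cell proliferation and growth in leaves and shoots. Its percentile ran from 17.5 to 43.2.

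Carbohydrate and cell wall genes numbered 6, with DRT101 at the top and the exostosin family genes AT4G38040 and AT3G57630 at the bottom. AT4G38040 had 0.202, 0.142, 0.185 and 0.177, and AT3G57630 had 0.149, 0.0768, 0.21 and 0.177, and both were lowest on replicate 2. Exostosin-type proteins are glycosyltransferases that add sugars to wall polymers and wall proteins. GH9B16 has been given above. AT1G11820, a glycosyl hydrolase, had 0.5 on replicate 1 and 0.345, 0.332 and 0.333 on the others. AT1G62760, from the family of invertase and pectin methylesterase inhibitors, had 0.273, 0.409, 0.36 and 0.463. Both were near the array medians, on different sides of them on different arrays.

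Among 5 genes of redox reactions, electron transfer and ascorbate, AT1G30700 was the brightest. It encodes a berberine bridge enzyme-like oxidoreductase, of a flavoprotein family that includes oxidases of wall oligosaccharides and of lignin precursors, and had 0.962, 0.921, 0.62 and 0.693. Replicates 1 and 2 were higher than 3 and 4, and all were above the array medians. AT4G20820, of the same family, had 0.261, 0.324, 0.331 and 0.382 and was below the median on each array. AT1G02020, of the nitroreductase family, had 0.43, 0.466, 0.339 and 0.377, and GLDH and ETFQO complete the group.

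Lipid genes and plastid lipid-associated genes numbered 4, of which LpxA and CHL are described above. Fibrillins coat the lipid droplets of plastids and sit on thylakoids. The fibrillin gene AT2G46910 had 0.476, 0.451, 0.439 and 0.476 and was above the median on all arrays by a small margin. AT1G51110, another fibrillin gene, had 0.387, 0.365, 0.362 and 0.331 and was below it on all. Their median percentiles were 54.2 and 43.9.

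The 6 genes of signalling and defence lay close together, with mean intensities of 0.161 to 0.298 and median percentiles of 24.5 to 36.4. All 6 were below the array median on all 4 arrays, as were 29 of all 71 genes. AT1G72890, a disease resistance gene of the TIR-NBS type, had 0.277, 0.302, 0.347 and 0.268. AT3G54930, a regulatory B subunit of protein phosphatase type 2A, had 0.277, 0.245, 0.292 and 0.351. The protein kinase gene AT1G61590 had 0.229, 0.29, 0.293 and 0.234. In none of these 3 did the values reach an array median. AT5G48130, of the NPH3 family that takes part in phototropism, and AT2G24810, of the thaumatin family of defence proteins, had means of 0.205 ± 0.0214 and 0.161 ± 0.0187. Genes of protein turnover were likewise below the median throughout, 3 of 3. They were AT3G26730, AT1G35340 with a Lon domain (mean 0.335 ± 0.0628) and AT2G27630, related to enzymes that remove ubiquitin (mean 0.27 ± 0.0523).

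The last 4 genes with a role differ in kind. AT4G16490, an armadillo repeat protein, had 1.28, 1.39, 1.16 and 1.05. AT2G23890, a nucleotidase of the HAD type, had 0.819, 0.843, 0.801 and 0.8, with an SD of 0.0203. AT4G39690 encodes MIC60, the subunit of the MICOS complex that shapes the inner membrane folds of mitochondria, and had 0.618, 0.602, 0.736 and 0.643. AT4G31930, of the mitochondrial glycoprotein family, had 0.205, 0.155, 0.291 and 0.281. The first 3 were above the array medians on all arrays and the fourth below.

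**Figure D4:**
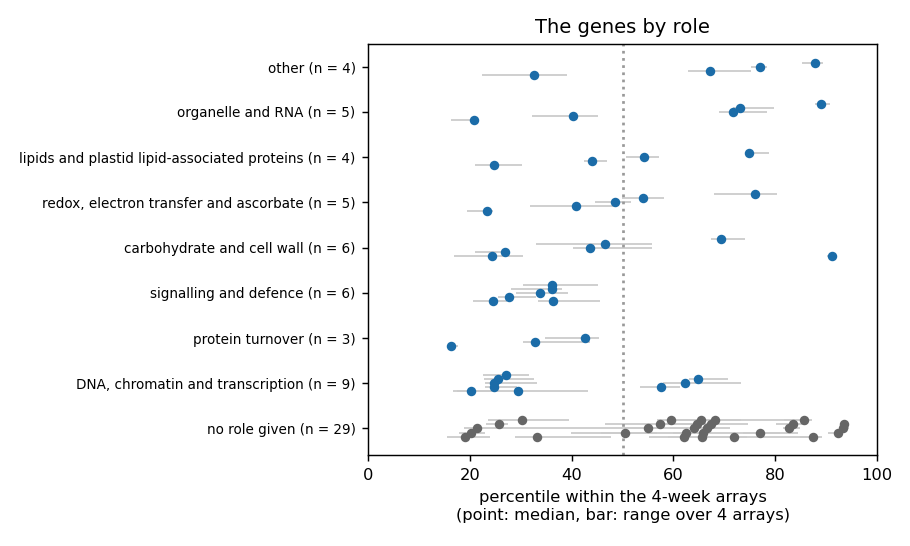
Percentile of each gene within the 4-week arrays by role group; points are medians over 4 arrays, bars their range, and the dotted line marks percentile 50. All 6 genes of signalling and defence and all 3 of protein turnover lie to the left of the line, and 20 of the 29 genes without a role were above the array median on all 4 arrays. Of all 71 genes, 34 were above it on all 4 arrays and 29 were below, and the roles were given after the values were seen.

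Genes with no role given were 29, with a median percentile of 65.5. Of them, 20 were above the array median on all 4 arrays and 5 were below on all. Over all 71 genes these counts were 34 and 29. Besides AT4G24090, AT2G46300 and AT2G13690, the rule for naming genes picked AT2G35450, with 1.11, 1.19, 1.22 and 1.26, and AT2G14660, with 1.20, 1.23, 0.996 and 0.905. AT3G56290 had a mean of 1.02 ± 0.0583. The lowest percentiles of these 3 on any array were 84.8, 81.8 and 80.2. AT2G32470 and AT3G11150 followed, with means of 0.992 ± 0.0828 and 0.827 ± 0.126. At the other end lay AT2G03140, with 0.0893, 0.152, 0.0763 and 0.135, and AT3G17950, with 0.0444, 0.155, 0.0451 and 0.148. Both were lower on replicates 1 and 3 than on 2 and 4. Another 15 genes without a role had mean intensities between 0.174 and 0.719. They are AT3G52550, AT1G50020, AT4G23110, AT3G53470, AT4G37420, AT2G48090, AT2G38500, AT1G07040, AT5G01860, AT4G18540, AT5G63490, AT3G47100, AT5G25990, AT1G65090 and AT4G09970, and the remaining 4 are described for their spread in the next paragraphs.

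Most of the genes kept their place from array to array. The range of a gene's percentile over the 4 arrays had a median of 8.46 and was under 10 for 43 of the 71 genes. For the 575 probes with 1 gene detected on all 4-week arrays, the median was 7.71 and the range was under 10 for 364, so this steadiness is not particular to the 71. Spearman correlations across the 71 genes between pairs of 4-week arrays ran from 0.887 to 0.966. The highest was between replicates 1 and 2 and the lowest between 1 and 4. The points share their probes and arrays, and the correlations are given as a description.

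The widest range belonged to AT5G24690, with 0.339 and 0.415 on replicates 1 and 2 and 1.01 and 1 on replicates 3 and 4, percentiles of 39.8 to 84.5. AT1G50770 had 0.12, 0.106, 0.123 and 0.553, so that its mean of 0.226 ± 0.218 rests on replicate 4 and is 0.117 without it. AT4G05030 had 0.494, 0.647, 0.578 and 1.28, again highest on replicate 4. AT2G46190 had 0.529, 0.689, 0.62 and 1.06. For these 4 genes no single level at 4 weeks can be given.

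Some genes differed at 4 weeks between replicates 1 and 2 on one side and 3 and 4 on the other. In deposited intensity both values of replicates 1 and 2 were above both of 3 and 4 for 19 of the 71 genes (26.8%), and the reverse held for 21 (29.6%). Among the 575 probes the shares were 34.3% and 20.7%. The array medians also differed, 0.44 and 0.445 on replicates 1 and 2 against 0.39 and 0.397 on 3 and 4. In percentiles within the array, replicates 3 and 4 were both higher for 33 of the 71 genes and replicates 1 and 2 for 9, against 227 and 118 of the 575 probes. Zeros on the 3-week arrays differed between the same pairs. They made up 32.0% and 31.2% of the probes on replicates 1 and 2, and 28.7% and 26.9% on 3 and 4. The labels do not say what replicates share, and the part of these patterns in the levels and zeros was not tested.

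By locus code 14 of the 71 genes lie on chromosome 1, 18 on chromosome 2, 12 on chromosome 3, 18 on chromosome 4 and 9 on chromosome 5. As shares, these are 19.7%, 25.4%, 16.9%, 25.4% and 12.7%, against 25.6%, 17.1%, 19.0%, 16.5% and 21.6% of the 620 probes with 1 gene that did not meet the rule. In the gene order of TAIR10.1 no pair of the 71 genes was adjacent. The closest were GLDH and CHL, with 4 protein-coding genes between them, and AT2G46300 and AT2G46190, with 11. No sequences of the probes or genes were used here.

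Probe numbers, in contrast, ran together. Of the 288 probes that met the rule 108 (37.5%) had a number next to that of another such probe, against 298 of the 3151 other probes (9.46%) next to one. Among the 71 genes this held for 21 (29.6%), and 9 were next to another of the 71. AT1G62760, AT1G07040 and AT3G17950 are probes 1845, 1846 and 1847. AT2G23890 and GH9B16 are probes 3147 and 3148, AT1G50770 and AT4G09970 are 3568 and 3569, and AT4G39690 and chr31 are 4112 and 4113. The sources used here do not say whether neighbouring numbers mean neighbouring spots, and the part of probe order in the zeros was not tested. The 50 genes with no such neighbour had a median percentile at 4 weeks of 54.1, and the 21 with such a neighbour had 62.0, a difference that was not tested.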

How the data were processed

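Total RNA of Arabidopsis plants was measured on 8 arrays, 4 per age. The authors deposited a table of linear array intensity values; how they were scaled and corrected, and with which tools, is not stated. Probes were named from the platform annotation (692 with 1 gene, 870 with several, 1877 unnamed), and symbols were looked up by Entrez number in RefSeq's TAIR10.1 gene table, where 690 of the 692 were found. The genes and lists were chosen with earlier results of these data known. Values were used as deposited, with no normalization, and ranked within each array, ties at their mean rank, in pandas 2.3.3 under Python 3.11.15. With no background values, the precision is described only by the number of arrays and the spread between them.

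No test between the ages was run, since the rule uses that contrast. The selection and ranking were tested on simulated data, which checks the code only and bears on no result given here. The rule for named genes took the 15 highest and 5 lowest by median percentile, the 3 with the widest and the 3 with the narrowest range of percentiles, those with a symbol, and the brightest of each word group, 30 in all. The other genes were named after their values were seen. Alternatives were other detection limits, other ranking sets, scaling to a common median and leaving out arrays. Neighbouring probe numbers were examined only after the data were seen.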

Additional observations from a re-analysis of the deposited data

Results flagged for a closer look

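Of the 30 named genes, each with 4 values at 4 weeks, 1 had an array far from the others. Chance gives about 1 in 20 groups where genes are not chosen for their spread, but 6 of the 30 were chosen for a wide or narrow range of percentiles, among them this gene, so that rate is no guide here. It was AT1G50770, for which the gap between replicate 4 and the nearest other array took up 0.962 of the range. Replicate 4 had 0.553, and the others had 0.12, 0.106 and 0.123. AT1G50770 is probe 3568, and probe 3569, AT4G09970, had 0.184 on the same array and 0.163 to 0.179 on the others.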

How the results depend on the processing

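The number of genes was 71 to 87 over the settings that left out 1 replicate number or 1 array. Leaving out replicate 1, 2, 3 or 4 of 3 weeks alone gave 79, 77, 86 or 85 genes. The number was 74 with detection on at least 3 arrays of 4 weeks and 62 with detection above percentile 20. It was 114 with 0 on at least 3 arrays of 3 weeks, 34 with values above the array median on all 4 arrays of 4 weeks, and 288 with every probe, named or not. By construction a wider rule cannot lower the count and a narrower rule cannot raise it. The median percentile of 54.2 was 53.3 among probes with 1 gene and 45.4 among probes above 0 on all 4 arrays of 4 weeks, where dimmer probes leave the ranking, and 50.8 to 56.1 with 1 array of 4 weeks left out. Scaling between arrays cannot change it. The median of the mean intensities, 0.462, was 0.45 to 0.48 with 1 array left out and 0.462 after scaling to a common median. Of the 30 named genes, all kept a mean within 1 SD after that scaling. Among 120 means recomputed without 1 array, 1 mean moved by over 1.5 times, that of AT1G50770, to 0.117. No paired analysis was possible because the results come from no test: the genes were chosen on the contrast between the ages, so testing it with or without the replicate number as a block would only return the choice. Values at 0 have no order, and signal over background is not known.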

Other observations

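The zeros of the 3-week arrays ran together by probe number. Of the 520 probes at 0 on all 4 arrays of 3 weeks, 216 (41.5%) were next to another of these 520, against 16.7% of the remaining probes. The share was 137 of 288 (47.6%) for those above 0 on all arrays of 4 weeks and 79 of 232 (34.1%) for the others. Of the 344 probes at 0 on all 4 arrays of 4 weeks, 45 (13.1%) were next to another of these 344, against 14.2% of the remaining probes. The numbers run up to 4607 for 3439 probes, and neighbours were counted only where the number before or after is in the table. What the probe number stands for on the array is not given in the sources used here, and the cause was not tested.

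The 216 probes that met the rule but have several genes or none in the annotation are not among the 71. Together with the 71 and the 1 gene not described here, they make up the 288 probes that met the rule. These 288 had a median percentile of 49.4 on the 4-week arrays and a highest mean intensity of 2.54.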
